A study of Mus musculus with 8 samples.

Results

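The vesicular glutamate transporters load glutamate into synaptic vesicles and are encoded in the mouse by 3 genes, Slc17a6 (VGLUT2), Slc17a7 (VGLUT1) and Slc17a8 (VGLUT3). They were found by gene symbol among 19505 named genes of an Affymetrix array, with 1 probe set each. The family was chosen by its single-array log2 values over the 4 groups of tissue and treatment, so those values are given as a description, with standard errors and without p-values for the members. Where members were called in a fit over all genes, the count is given beside the share of all genes called and is not used as evidence. Adjusted p-values are given for other genes only.

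Total RNA came from hippocampus and cerebral cortex of male mice aged 12 weeks, and 8 samples were hybridised to 1 array each. Exposed mice received clothianidin, a neonicotinoid insecticide that acts on nicotinic acetylcholine receptors, at 50 mg/kg/day for 2 weeks, which the submitters give as the no observed adverse effect level. Control mice received vehicle with 1% DMSO over the same time. The 4 groups were exposed hippocampus (arrays numbered 3 and 6), control hippocampus (1 and 6), exposed cortex (3 and 6) and control cortex (1 and 6), 2 arrays each. The labels name no strain, no allele and no pooling, and do not say whether the arrays of a group came from different animals. The p-values therefore speak of the spread among these arrays, which may be technical. Whether the clothianidin was itself given in DMSO is not settled by the labels.

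Vesicular glutamate transporters concentrate cytosolic glutamate in the vesicle by means of the proton gradient that a vacuolar ATPase builds across its membrane, and a neuron that carries one of them can release glutamate. In the adult forebrain Slc17a7 is the main form of cortical and hippocampal pyramidal cells and dentate granule cells. Slc17a6 is the main form of thalamic, hypothalamic and brainstem glutamate neurons, and is also expressed in subicular, retrosplenial and some deep or middle layer cortical neurons. Slc17a8 is found in cell groups better known for another transmitter, including cholecystokinin-positive interneurons, cholinergic and serotonin neurons.

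The labelled tissues were checked against marker genes. C1ql2, made by dentate granule cells, read 11.79 and 11.68 log2 in exposed hippocampus and 11.91 and 11.73 in control hippocampus, against 6.74 to 6.85 in the 4 cortex arrays. Lamp5, a marker of upper cortical layers, read 9.41 to 10.57 in the 4 hippocampus arrays, against 14.48 to 15.16 in cortex. A pair of arrays stood apart in choroid plexus genes. Ttr, the transthyretin gene of that tissue, read 19.51 in hippocampus control 1 and 15.41 in cortex control 6, against 6.39 to 7.76 in the other hippocampus arrays and 4.17 to 5.73 in the other cortex arrays. The exposure and tissue differences of the members, the exposure medians of the lists and the Slc17a6 share of the tissue distance were also computed without both arrays. In whole tissue, fewer cells of a type and less RNA per cell cannot be told apart.

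The upstream sequences of Slc17a6 and Slc17a7 are shown because the array values of these genes lay on opposite sides of the controls in exposed hippocampus. Both genes lie on chromosome 7, and the sequences are the 250 bases before the RefSeq transcription start on build GRCm38.p6, plus strand, at chr7:51621580-51621829 for Slc17a6 (the first of its annotated starts) and chr7:45163671-45163920 for Slc17a7. Capitals mark the GC box GGGCGG, on either strand.
Slc17a6: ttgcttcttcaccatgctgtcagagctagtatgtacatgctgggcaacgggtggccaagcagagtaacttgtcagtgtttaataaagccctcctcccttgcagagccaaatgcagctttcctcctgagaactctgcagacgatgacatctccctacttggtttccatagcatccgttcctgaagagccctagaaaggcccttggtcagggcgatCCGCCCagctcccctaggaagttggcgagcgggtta
Slc17a7: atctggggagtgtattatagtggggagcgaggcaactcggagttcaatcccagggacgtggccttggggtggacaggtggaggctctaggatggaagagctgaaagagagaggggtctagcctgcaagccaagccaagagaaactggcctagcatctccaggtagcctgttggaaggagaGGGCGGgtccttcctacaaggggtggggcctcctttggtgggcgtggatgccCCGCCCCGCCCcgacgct

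The printed Slc17a6 window held 1 GC box and the Slc17a7 window held 3, of which 2 share a base and appear as 1 run of capitals. The window of the other annotated Slc17a6 start, with 41.2% G or C and 3 CpG dinucleotides, held 0. The windows of both annotated starts of Slc17a8, on chromosome 10, held 0. Of 32851 such windows in the RefSeq table, 32.7% held at least 1 GC box. The printed Slc17a6 window was 53.2% G or C with 7 CpG dinucleotides, and the Slc17a7 window was 61.2% G or C with 9. The median window had 6 CpG dinucleotides. The motif TGACGTCA of the cyclic AMP response element was in 0 windows of the 3 genes and in 1.55% of all windows. TGACTCA, the AP-1 motif, was likewise in 0 and in 4.46%, and the EGR motif GCGNGGGCG in 0 and in 4.7%. The E-box CANNTG was in every window of the 3 genes and in 66.2% of all windows. These matches are descriptions of the letters and not of binding.

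Of the 3 transporters, Slc17a6 stood farthest from its controls in exposed hippocampus. It read 8.82 and 8.37 log2 in exposed hippocampus, against 7.23 and 7.49 in control hippocampus, with means of 8.60 ± 0.32 and 7.36 ± 0.18 (SD, n = 2 each). Both exposed arrays lay above both controls, and the lower exposed array was still above the higher control. The difference was 1.24 on the log2 scale (SE 0.27), a 2.35-fold higher level in exposed hippocampus. Without any 1 array the difference stayed between 1.01 and 1.46, and it was 1.11 without both arrays high in choroid plexus genes.

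In cortex Slc17a6 read 9.74 and 10.09 in exposed arrays, against 9.99 and 10.05 in control arrays. The arrays overlapped, and the difference was -0.11 (SE 0.27). The hippocampal difference exceeded the cortical one by 1.34 (SE 0.38). Left-out arrays moved the cortical difference to between -0.28 and 0.07, so its sign rests on which exposed cortex array is used.

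Slc17a7 read 17.52 and 17.66 in exposed hippocampus, against 17.86 and 17.68 in control hippocampus. Both exposed arrays lay below both controls, but the nearest pair was almost level, and the difference was -0.18 (SE 0.17). Without hippocampus control 1 it was -0.09. In cortex the exposed arrays read 17.64 and 17.62, against 17.99 and 17.96 in controls. Here the gap between groups was far wider than the gap within them, with a difference of -0.35 (SE 0.17), a 1.27-fold lower level in exposed cortex. Without both arrays high in choroid plexus genes it was -0.36.

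Slc17a8 was at the low end of the array and below the filter limit of 3.937 on its 8-array mean of 3.53. It read 4.29 and 3.85 in exposed hippocampus, against 4.09 and 3.79 in control hippocampus. In cortex it read 2.90 and 3.08 in exposed arrays, against 3.00 and 3.21 in controls. The groups overlapped in both tissues, with exposure differences of 0.13 in hippocampus and -0.12 in cortex (SE 0.29 each, from a fit without the filter). No detection value came with the table, so these levels are not shown to be above background.

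**Figure D1:**
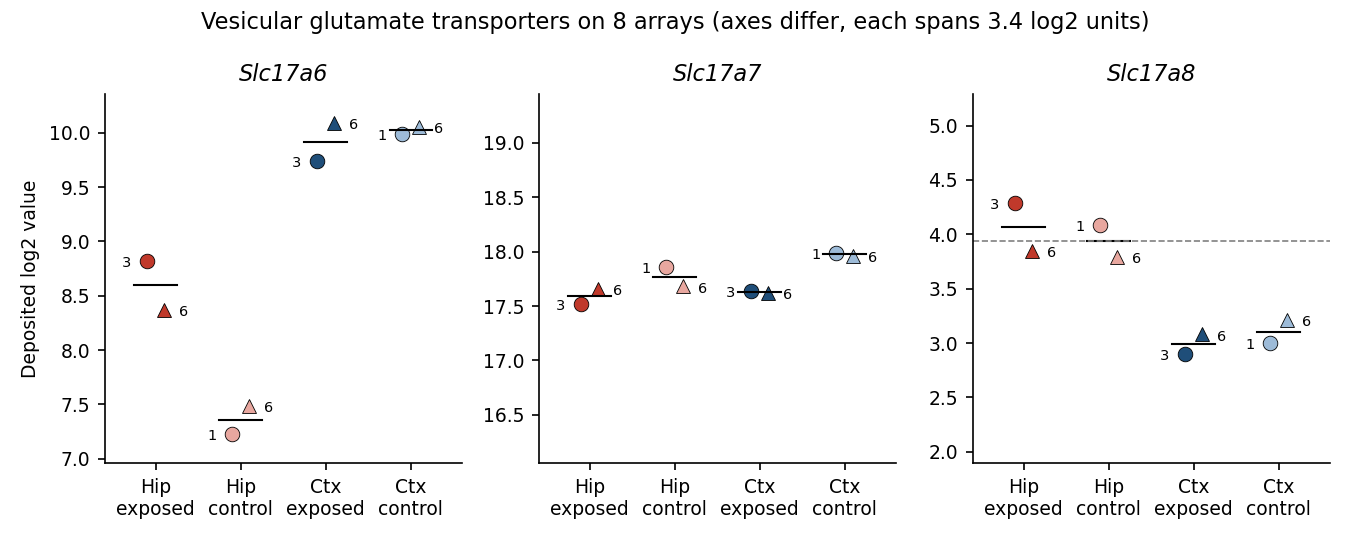
Deposited log2 values (y axis) of Slc17a6, Slc17a7 and Slc17a8 on all 8 arrays by group (x axis, Hip hippocampus, Ctx cortex), each point 1 array with its number and each bar the mean of 2 arrays; the dashed line in the Slc17a8 panel is the filter limit of 3.937. The Slc17a6 arrays of exposed hippocampus, 8.82 and 8.37, lie between control hippocampus and cortex, while the Slc17a7 arrays all lie between 17.52 and 17.99.

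The limma fit covered 14804 probe sets, among them 2 of the 3 members. In exposed against control hippocampus, 0 of the 2 were called at an adjusted p under 0.05, where 0.00675% of all tested probe sets were called. In cortex 0 of the 2 were called, again against 0.00675%. For the difference between the hippocampal and cortical exposure differences, 0 of the 2 were called and 0% of all probe sets, of which 3.45% had an unadjusted p under 0.05. Exposed arrays did not overlap controls on the higher side for 16.7% of probe sets in hippocampus, where Slc17a6 was one. On the lower side they did not overlap for 14.0% in hippocampus and 21.4% in cortex, where Slc17a7 was one in both. Since the values in these contrasts chose the members, nothing is read from the counts.

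Between the tissues, Slc17a6 was lower in hippocampus, while Slc17a7 differed little. The Slc17a8 values read higher in hippocampus, but they are at levels not shown to be above background, so its differences are those of the readings only. In control mice the hippocampus minus cortex difference was -2.66 for Slc17a6 (SE 0.27), a 6.32-fold lower level in hippocampus. It was -0.21 for Slc17a7 (SE 0.17) and 0.84 for Slc17a8 (SE 0.29). In exposed mice the same differences were -1.32 for Slc17a6, -0.04 for Slc17a7 and 1.08 for Slc17a8. The Slc17a6 tissue difference was thus 2.50-fold in exposed mice, against 6.32-fold in control mice, and the hippocampus and cortex arrays did not overlap in either arm. Arrays lay wholly lower in hippocampus for 22.0% of probe sets in exposed mice and 24.7% in controls, and wholly higher, as for Slc17a8, in 35.0% and 34.5%.

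Over the 4 groups, the Slc17a6 level ran downward through control cortex, exposed cortex, exposed hippocampus and control hippocampus, and the cortex groups overlapped while every later step was free of overlap. The Slc17a7 order was control cortex, control hippocampus, exposed cortex and exposed hippocampus, and only the last pair overlapped. For Slc17a8 the order was exposed hippocampus, control hippocampus, control cortex and exposed cortex, with arrays apart only between the tissues. The array medians were 0.14 higher in hippocampus than in cortex among exposed arrays and 0.16 higher among controls. With arrays centred on their medians, the tissue differences of Slc17a6 were -1.46 in exposed mice and -2.82 in controls, and those of Slc17a8 were 0.94 and 0.68. For Slc17a7 the value moved more, to -0.18 in exposed and -0.37 in control mice, and with quantile normalization it was 0.04 and -0.06, so no direction between tissues is given for it in exposed mice.

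Between tissues 1 of the 2 tested members, Slc17a6, was called in each arm, where 14.5% of probe sets were called in exposed mice and 17.7% in controls. The choice of members used these tissue contrasts too, so nothing is read from this count. Calls on its side, lower in hippocampus, made up 5.22% of probe sets in exposed mice and 7.63% in controls, and calls on the other side 9.25% and 10.1%. The split of all calls depends on scaling. In exposed mice 1370 of 2143 calls were higher in hippocampus, against 1001 of 2037 with median centring and 1030 of 2005 with quantile normalization. In control mice 1491 of 2620 were higher, against 1041 of 2537 with median centring.

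Within each array, the Slc17a6 value minus the Slc17a7 value was -8.70 and -9.29 in exposed hippocampus, against -10.63 and -10.19 in control hippocampus. In cortex it was -7.90 and -7.53 in exposed arrays, against -8.00 and -7.91 in controls. The difference between arms was 1.42 in hippocampus and 0.24 in cortex. This shows unequal change of the 2 readings and says nothing about which protein is more abundant, since the levels of different probe sets are not comparable.

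Genes that mark subicular and retrosplenial neurons, where Slc17a6 is also expressed, were higher in exposed hippocampus along with it. The list, like the other gene lists used here, was written with earlier results of these data known, so its counts are descriptions. Of 6 tested markers, 6 had a higher mean in exposed hippocampus, 5 with both exposed arrays above both controls, and the median difference was 1.31. The mean of all 7 listed markers was 7.56 and 7.18 in exposed hippocampus, against 6.05 and 6.23 in controls. Across all tested probe sets 50.7% were higher, 16.7% lay wholly above the controls, and the median was 0.01. Just 1 of the 6 was called after adjustment over all probe sets, and 5 had an unadjusted p under 0.05, as 5.81% of all probe sets did. A seventh marker, Ly6g6e, read 2.77 to 2.95 in the hippocampus arrays, below the filter limit, and was not tested. In cortex 2 of the 6 were higher, both wholly above the controls (17.1% of all probe sets), and the median difference was -0.04. Without cortex exposed 3, 6 of the 6 were higher there, and without cortex control 6 it was 5.

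Tshz2, a zinc finger transcription factor gene, read 11.29 and 10.35 in exposed hippocampus, against 8.33 and 8.24 in controls, a difference of 2.54 (SE 0.31, limma adjusted p = 0.045). Every exposed array was well clear of the controls, but the call was lost under several alternatives, with adjusted p between 0.01 and 0.97 over all of them. Rxfp1, a relaxin receptor gene, read 7.99 and 7.99 in exposed hippocampus, against 6.32 and 6.40 in controls, a difference of 1.63 (SE 0.31) that did not pass (adjusted p = 0.31). Vwc2l, which encodes a secreted protein with von Willebrand factor C domains, read 8.17 and 7.06 in exposed hippocampus, against 6.22 and 6.21 in controls. Its arrays did not overlap, and its difference was 1.40 (SE 0.34, adjusted p = 0.77).

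The neuropeptide gene Nts, neurotensin, read 7.38 and 7.53 in exposed hippocampus, against 6.06 and 6.43 in controls, a difference of 1.21 (SE 0.31, adjusted p = 0.77). Unlike Slc17a6 it was lower in cortex, at 3.72 to 4.28 on all 4 arrays. Fn1, the fibronectin gene, read 8.95 and 8.89 in exposed hippocampus, against 7.85 and 7.85 in controls, with a difference of 1.07 (SE 0.33, adjusted p = 0.77). In control mice Fn1, like Nts, was higher in hippocampus than in cortex, while the other 4 tested markers were lower there. The adhesion gene Cntn6 read 6.36 and 5.66 in exposed hippocampus, against 4.64 and 5.69 in controls, and its arrays overlapped. The 6 markers were all higher without any 1 array, but only Cntn6, whose arrays overlapped, could have turned. The part of the 6 markers in the Slc17a6 difference was not tested.

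**Figure D2:**
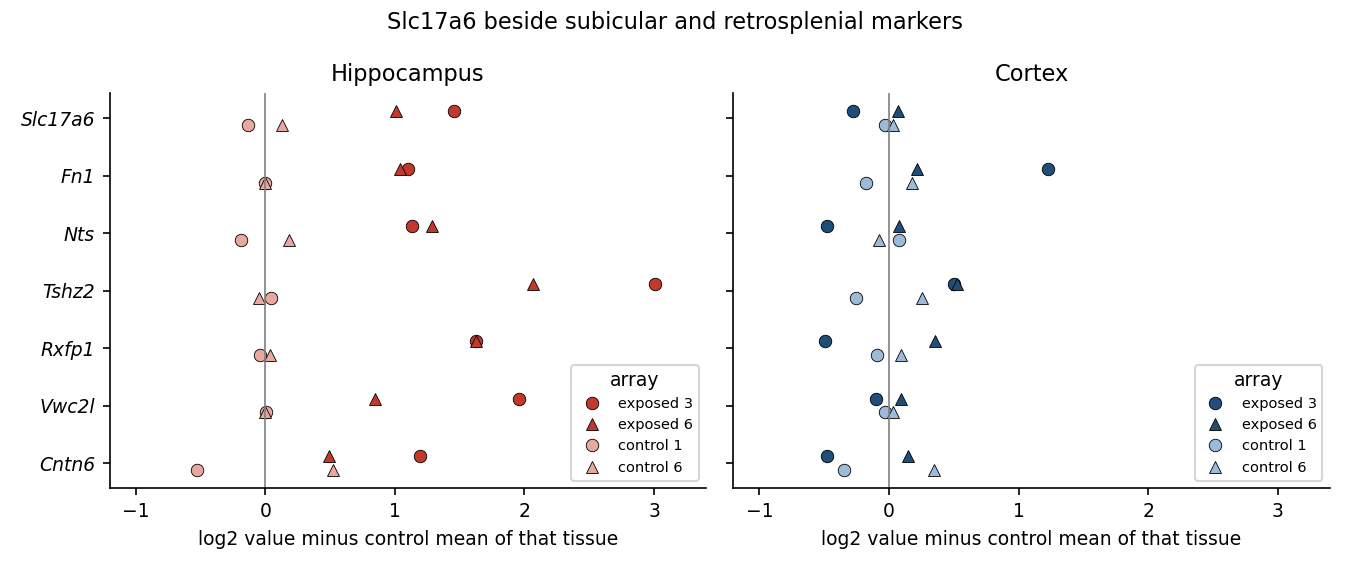
Log2 value minus the control mean of the same tissue (x axis) for Slc17a6 and 6 subicular and retrosplenial markers (y axis) in hippocampus and cortex, each point 1 array. In hippocampus both exposed arrays lie to the right of both controls for Slc17a6 and for 5 of the 6 markers, and in cortex the Slc17a6 arrays overlap.

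Cortical layer markers were also mostly higher in exposed hippocampus, with a smaller median difference than the subicular list and large differences in single genes. Of 13 tested, 10 were higher in exposed hippocampus and 8 lay wholly above the controls, against 16.7% of all probe sets. The median was 0.54, 0 were called, and 5 had an unadjusted p under 0.05. Their mean was 9.86 and 9.37 in exposed hippocampus, against 9.05 and 9.0 in controls. Mef2c, a transcription factor gene of cortical neurons, read 14.26 and 13.90 in exposed hippocampus, against 13.13 and 13.17 in controls. Ccn2, a marker of the deepest cortical layer, read 7.63 and 4.85 in exposed hippocampus, against 3.90 and 4.17 in controls, so hippocampus exposed 3 stood far above exposed 6. Their part in the Slc17a6 difference was not tested either.

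Markers of other cells that carry Slc17a6 had smaller median differences than the subicular list or were too low to read. Thalamic markers were higher in exposed hippocampus for 2 of 9 tested, with a median of -0.17, which was 0.04 without control 1. These 2 lay wholly above the controls and 1 of the 7 lower ones wholly below, against 16.7% and 14.0% of all probe sets. Hypothalamic markers lay below the filter limit for 7 of 8, and the tested one differed by -0.03. Habenular markers lay below it for 4 of 7, and 2 of the 3 tested were higher, with a median of 0.41. Cajal-Retzius cells, another Slc17a6-positive type of the hippocampus, had 3 of 5 markers below the limit, and the 2 tested were higher with a median of 0.19. The habenular median was -0.12 without control 6 and -0.27 without exposed 3, and the Cajal-Retzius median ran from 0.02 to 0.36 without 1 control array. By limma 0 of these genes were called, and 2, both thalamic, had an unadjusted p under 0.05. Of the hippocampal subfields, dentate granule markers were higher for 2 of 6 (median -0.07), CA3 markers for 1 of 5 (median -0.13) and CA1 markers for 3 of 6 (median 0.09). The CA1 median turned to -0.24 without exposed 6, and the dentate median was -0.29 without exposed 3. Markers common to neurons were higher for 5 of 6, with a median of 0.15.

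Markers of the cells that carry Slc17a8 gave no steady direction in hippocampus or were too low to read. All 3 cholinergic markers lay below the filter limit, and the 1 serotonin neuron marker tested differed by -0.01, with -0.43 without control 1 and 0.41 without control 6. Of 3 cholecystokinin interneuron markers 1 was higher in exposed hippocampus, with a median of -0.01, and 0 of 3 in exposed cortex, with a median of -0.47. Cck, the higher one in hippocampus, read 17.34 and 16.47 in exposed arrays, against 17.05 and 16.43 in controls, and its arrays overlapped.

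To place exposed hippocampus between the tissues, the Slc17a6 difference between exposed and control hippocampus was set against the distance from control hippocampus to control cortex. It covered 46.4% of that distance on the log2 scale and 25.4% on the linear scale. Both differences share the control hippocampus arrays, and Slc17a6 was chosen from these values. The probe sets set beside it were picked by that same distance, so nothing is read from its place among them. Slc17a6 is itself among them and is included in the counts below. Among 1014 probe sets at least 2-fold higher in control cortex, the median covered 13.7% on the log2 scale and 6.8% on the linear scale, and 84 of them (8.28%) covered as much as Slc17a6 or more. Among the 147 that were 4- to 8-fold higher, the median was 15.4%, and 10 (6.8%) reached the Slc17a6 share. Leaving out 1 array at a time, the Slc17a6 share ran from 38.0% without hippocampus exposed 3 to 54.9% without exposed 6.

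Cortical layer markers mostly covered less. Lamp5 covered 10.2%, Tbr1 15.9%, Cux2 17.4% and Mef2c 21.6% on the log2 scale. Ccn2 covered 44.1% and Rasgrf2, an upper layer marker, 54.2%, while Rorb covered -10.5%, which means its exposed hippocampus lay farther from cortex than control hippocampus did. The subicular markers Tshz2, Rxfp1 and Vwc2l covered 69.6%, 94.5% and 122%, and Cntn6 covered 31.5%. The log2 distances differed, at 1.15 for Vwc2l, 1.32 for Rasgrf2, 1.73 for Rxfp1, 3.64 for Tshz2 and 5.24 for Lamp5. An equal shift gives a larger share of a smaller distance. The lists overlapped around the Slc17a6 share, with Rasgrf2 above it and Cntn6 below it, and no test was run.

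**Figure D3:**
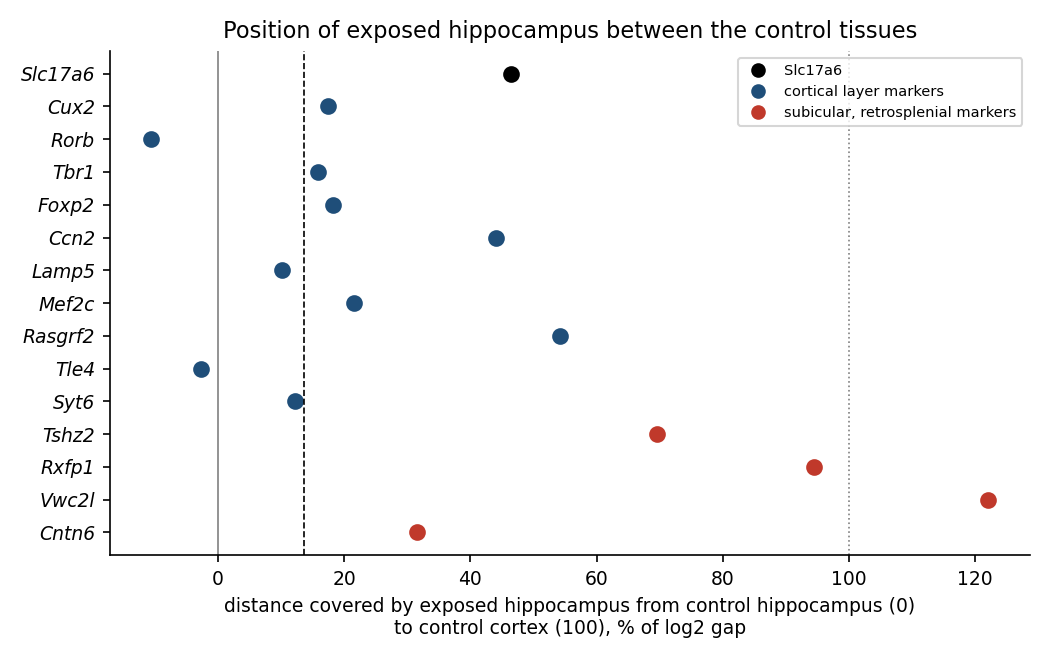
Share of the log2 distance from control hippocampus (0) to control cortex (100) that exposed hippocampus covered (x axis, percent), for Slc17a6 and for every cortical layer or subicular marker at least 2-fold higher in control cortex; each point is 1 gene from group means. The dashed line is the median of the 1014 probe sets at least 2-fold higher in control cortex, 13.7%, and Slc17a6 lies at 46.4%.

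The genes with the array profile most like Slc17a6 were found by the root mean square distance between 8-array log2 profiles, each centred on its own mean. They were Brinp3 (0.17), a neural gene inducible by retinoic acid, Tmem44 (0.17), a transmembrane protein gene, Asap1 (0.19), an Arf GTPase-activating protein gene, Chrna4 (0.23) and Unc13c (0.27), a vesicle priming gene. Chrna4 encodes a subunit of the neuronal nicotinic receptor, the receptor class that clothianidin acts on. It read 10.55 and 10.32 in exposed hippocampus, against 9.74 and 9.38 in control hippocampus, and 12.04 to 12.18 on the 4 cortex arrays. The exposed hippocampus arrays lay above the controls for all 5 genes, as the likeness requires, so no test is given. Of the 5, between 2 and 5 stayed nearest when 1 array was left out or the arrays were rescaled, with 2 kept without either hippocampus control array.

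**Figure D4:**
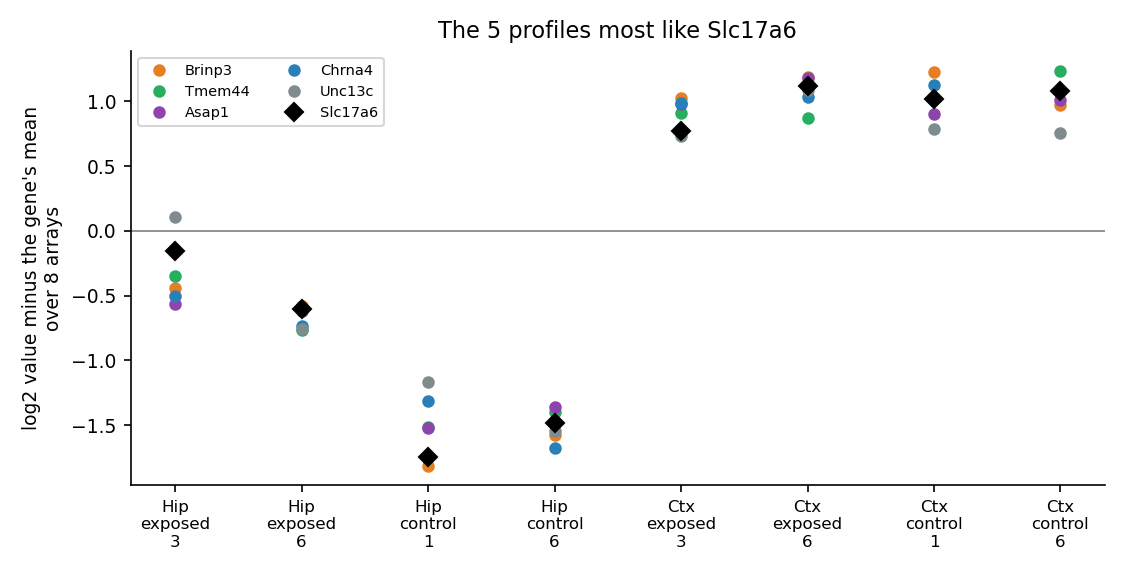
Log2 value minus the gene's own mean over 8 arrays (y axis) for Slc17a6 and the 5 genes with the most similar profile, by array (x axis); each point is 1 gene on 1 array. The 6 genes are lowest on the control hippocampus arrays, higher on the exposed hippocampus arrays and highest in cortex.

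The profiles nearest to Slc17a7 were those of Rnf26, Mob1a, Thap4, Sgpp1 and Mapre2, at distances of 0.07 to 0.08. Slc17a7 varies little over the arrays, so many flat profiles are close to it, and 1 to 5 of these stayed nearest under the alternatives. For Slc17a8 they were Slc16a14, Kyat3, Tcerg1l, Dgat2 and Asap2, at 0.09 to 0.13. Slc16a14, a member of the monocarboxylate transporter family, read 6.56 and 6.32 in exposed hippocampus and 6.33 and 6.19 in control hippocampus, against 5.28 to 5.47 in cortex. Again 1 to 5 of the 5 stayed nearest.

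The other genes of vesicle filling, glutamate supply and release passed no exposure test. In cortex most of them lay slightly lower in exposed arrays, as Slc17a7 did. Of 9 tested other vesicular transporters 1 was higher (median -0.26), of 16 proton pump genes 3 (median -0.18), of 11 genes of glutamate supply and clearance 4 (median -0.09), and of 16 vesicle cycle partners 3 (median -0.20). Across all tested probe sets 46.6% were higher in exposed cortex and the median was -0.03. By limma 0 of each list were called, and those with an unadjusted p under 0.05 numbered 1, 2, 3 and 1, where 6.18% of all probe sets had one. Without cortex exposed 3 the number higher became 2, 6, 4 and 6, so these counts rest partly on that array.

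In hippocampus the 4 lists showed no common direction. Slc17a6 was chosen from these values, so nothing is read from its place beside them. The number higher in exposed hippocampus was 5 of 9 other transporters (median 0.06), 9 of 16 proton pump genes (0.02), 4 of 11 supply and clearance genes (-0.17) and 10 of 16 vesicle cycle partners (0.07). Again 0 were called by limma, and 1, 0, 0 and 0 had an unadjusted p under 0.05. Without hippocampus control 1, 9 of the 11 supply and clearance genes were higher. Without hippocampus control 6, 3 of the 9 other transporters and 5 of the 16 proton pump genes were.

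Among the other vesicular transporters, Slc18b1, which moves polyamines into vesicles, lay lower in exposed arrays of both tissues. It read 9.03 and 8.51 in exposed hippocampus, against 10.15 and 9.48 in controls, a difference of -1.05 (SE 0.30, adjusted p = 0.77). In cortex it read 8.03 and 7.66 in exposed arrays, against 8.77 and 8.90 in controls, a difference of -0.99 (SE 0.30, adjusted p = 0.74). The arrays did not overlap in either tissue, but neither difference passed. The vesicular GABA transporter gene Slc32a1 differed by -0.44 in cortex and the vesicle protein gene Sv2c by 0.53 in hippocampus, both with SE 0.28 or more.

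Among genes that supply glutamate, 2 mitochondrial carriers had the largest cortical differences. Slc25a12, the aspartate-glutamate carrier, read 14.70 and 14.42 in exposed cortex, against 15.81 and 15.15 in controls, a difference of -0.92 (SE 0.29, adjusted p = 0.74). Slc25a22, a mitochondrial glutamate carrier, read 11.08 and 10.65 in exposed cortex, against 11.82 and 11.67 in controls, a difference of -0.88 (SE 0.29, adjusted p = 0.74). Both had exposed cortex arrays wholly below controls, as had Got2, the mitochondrial aspartate aminotransferase gene (-0.48), and Slc1a1, a neuronal glutamate uptake gene (-0.49). In hippocampus Slc1a3, the glial glutamate uptake gene, differed by 0.55 (SE 0.26, adjusted p = 0.85).

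In the proton pump that powers the transporters, the cortical differences with the smallest p-values were those of Atp6v1e1 (-0.55), Atp6v0e2 (-0.52), Atp6v1g2 (-0.46) and Atp6v1d (-0.44), with adjusted p of 0.80 to 0.81. Among vesicle cycle partners, Vamp1, a synaptobrevin gene of vesicle fusion, read 14.37 and 14.36 in exposed cortex, against 15.11 and 14.99 in controls, a difference of -0.69 (SE 0.23, adjusted p = 0.74). Sh3gl2, which encodes an endophilin of a family that binds VGLUT1, differed by -0.49 (SE 0.25, adjusted p = 0.81). Unc13a, a vesicle priming gene, differed the other way, by 0.55 (SE 0.29, adjusted p = 0.81).

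**Figure D5:**
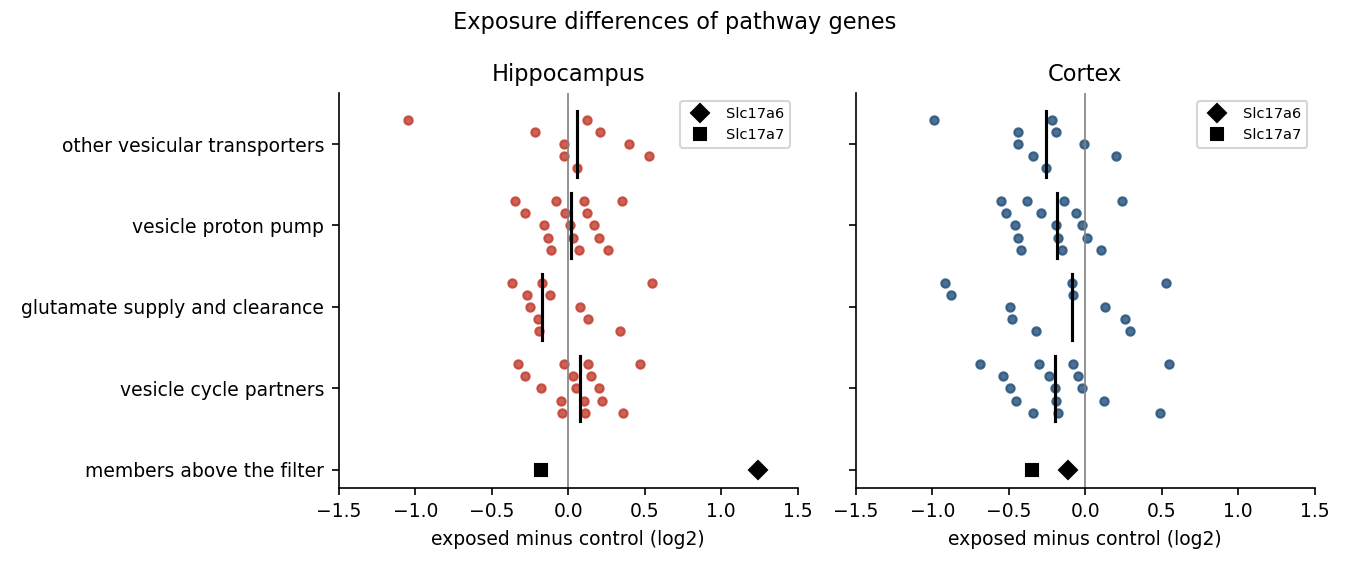
Exposed minus control difference (x axis, log2) of every tested gene in 4 lists (y axis) in hippocampus and in cortex; each point is 1 gene, each bar the list's median, and the bottom row holds the 2 members above the filter. In hippocampus Slc17a6, which was chosen from these values, lies at 1.24, to the right of every listed gene. In cortex the 4 medians lie between -0.26 and -0.09.

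Between tissues, several vesicle cycle partners were called, most of them lower in hippocampus as Slc17a6 was. In exposed mice 2 of 16 were called higher and 4 lower in hippocampus, against 9.25% and 5.22% of all probe sets (14.5% in either direction). In controls 1 was called higher and 7 lower, against 10.1% and 7.63% (17.7% in either direction). The split of all calls by direction depended on scaling. Stx1a, a syntaxin of the fusion machinery, was lower in hippocampus by 4.38 log2 in exposed mice and by 4.75 in controls (limma adjusted p = 2e-06 and 6.8e-07). Vamp1 was lower there by 1.64 and 2.35, in the same direction as Slc17a6. In the proton pump list 0 of 16 were called in either arm, with 2 in exposed mice and 0 in controls at an unadjusted p under 0.05, as 29.3% and 31.4% of all probe sets had.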

How the data were processed

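The deposited log2 values, 1 per probe set and array, were normalized by the authors with RMA, per the submitters' processing notes. Log2 was inferred from what RMA normally writes and from the highest entry, 19.93. Its version, its summary level and joint or separate normalization are not given in the sources used. Of 22206 probe sets 19572 had 1 gene symbol. For a list gene with several, the probe set with the highest mean was used. The 33.3% with the lowest means (under 3.937) went untested, leaving 14804. Using limma 3.58.1 (R 4.3.3), 1 mean for each group was estimated from the 8 arrays, and eBayes moderated the variances with a trend on mean level (4 residual, 7.918 prior degrees of freedom). Tests were two-sided, Benjamini-Hochberg adjusted within a comparison at 0.05, and checked on simulated data. Arrays of a group correlated at 0.9867 to 0.9915. The number of arrays limits the precision.

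Members and lists were chosen with earlier results of these data known. The text names up to 4 genes per pathway list and exposure comparison by smallest p, markers by highest mean or smallest p, and 5 nearest profiles per member. Single values of other listed genes, and the tissue differences of pathway genes, were picked after they were seen. Some listed genes are not reported here. Alternatives were other filters, quantile normalization, median centring, no trend, array weights, the compared groups alone, a replicate block and each array left out.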

Additional observations from a re-analysis of the deposited data

Results flagged for a closer look

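Atp6v1b2, a subunit gene of the vacuolar proton pump, is listed because its exposed arrays lay wholly above the controls in hippocampus and wholly below them in cortex. It read 15.17 and 15.44 in exposed hippocampus, against 15.09 and 15.00 in controls, a difference of 0.26 (SE 0.19). In cortex it read 15.19 and 15.30 in exposed arrays, against 15.43 and 15.36 in controls, a difference of -0.15. The difference between the tissues was 0.41 and did not pass (limma unadjusted p = 0.16, adjusted p = 1.0).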

How the results depend on the processing

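Slc17a6 in hippocampus kept its direction under every alternative run. Leaving out arrays could not have turned it, since both exposed arrays lay above both controls. Counts of exposure calls were fragile. Calls in cortex (1) became 0 with quantile normalization or no trend, 2 with array weights, the compared groups alone or the replicate block, 3 without both arrays high in choroid plexus genes (an alternative chosen after seeing the data), and 0 to 2 without 1 array. Calls in hippocampus (1, Tshz2) became 0 with quantile normalization, no trend, array weights, the compared groups alone or without both choroid plexus arrays, and 0 to 56 without 1 array, the 56 without hippocampus control 6. Calls between tissues were 1074 to 2440 in exposed and 1289 to 2532 in control arrays without 1 array, and 1155 in controls without both choroid plexus arrays. Calls of the difference between the exposure differences (0) became 0 to 30, the 30 again without hippocampus control 6.

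Without 1 array, the Slc17a6 differences were 1.01 to 1.46 (exposure, hippocampus), -1.55 to -1.10 (tissue, exposed), and 1.12 to 1.57 (between the exposure differences). The Slc17a7 differences were -0.27 to -0.09, -0.11 to 0.03 and 0.08 to 0.26, and -0.30 to -0.12 between tissues in controls. The Slc17a8 differences were -0.09 to 0.35, 0.86 to 1.30 and 0.03 to 0.47. For Slc17a7, median centring gave -0.18 between tissues in exposed mice and -0.37 in controls, and quantile normalization -0.06 in controls. Without both choroid plexus arrays it gave -0.09 for hippocampal exposure, -0.31 between tissues in controls and 0.27 between the exposure differences.

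The hippocampal exposure difference turned sign for Rims1 (0.05 without exposed 3; range -0.60 to 0.05 without 1 array), Unc13a (-0.03 without exposed 6; range to 0.74), and, without control 1 and also without both choroid plexus arrays, Slc17a1 (-0.06; range to 0.86) and Slc38a3 (0.19; range -0.92 to 0.19). The Tshz2 call was lost in 11 settings, and the causes were not tested.

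Number 6 is the only one that both arms share, so a replicate block could tie only the tissues of an arm, and the labels do not say that a number marks an animal. Deviations of same-numbered arrays correlated at 0.28 in exposed and 0.00 in control mice. These correlations do not settle whether the numbers mark pairs, and the main fit left the arrays unpaired. With the replicate block as a correlation between arrays (consensus 0.19), exposure calls were 2 in cortex and 1 in hippocampus. The tissue comparisons were instead fitted with a model term for each block. Calls were then 2835 between tissues in exposed and 3433 in control arrays, and 1 for the difference between the exposure differences. No background signal per probe was available, which limits what can be said of Slc17a8.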
